A study of Mus musculus with 4 samples.

Results

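The 3p arms of the let-7a to let-7g hairpins are the passenger strands of the let-7 family, and 10 of the 942 mature miRNAs counted in the cortex libraries are of this kind. They were taken by name, as every listed 3p arm of let-7a, let-7b, let-7c, let-7d, let-7e, let-7f and let-7g, without regard to their counts. The libraries came from the brain cortex of 4 B6C3 mice aged 9 months, 2 wild-type mice (WT1 and WT2) and 2 AD mice (APP3 and APP4). The AD mice carry APPswe, which encodes the amyloid precursor protein (part mouse, part human, with the Swedish mutation), and PS1ΔE9, which encodes human presenilin 1 without exon 9, and the expression of these transgenes is aimed at neurons of the brain and spinal cord. WT1 and APP4 were siblings, as were WT2 and APP3, so a difference within a sibling pair rests on 1 mouse of each genotype.

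A let-7 hairpin is cut by Drosha and Dicer into a duplex of a 5p and a 3p strand. The 5p strand is usually kept in Argonaute as the guide, represses genes such as Hmga2, Lin28 and the Ras genes, and is abundant in differentiated cells including neurons, while the 3p strand is usually degraded. Several hairpin copies in different places of the genome give the same let-7a-5p, let-7c-5p or let-7f-5p, and their 3p arms mostly differ in sequence. Where the 3p sequences differ, 3p reads tell which hairpin copy was cut, which the 5p reads cannot.

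The mature sequences of RefSeq show where the 3p arms differ and where they cannot be told apart. They are written 5′ to 3′ with the seed (bases 2 to 8, which choose the targets) in capitals.
let-7a-1-3p: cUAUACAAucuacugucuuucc
let-7c-2-3p: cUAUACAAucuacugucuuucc
let-7f-2-3p: cUAUACAGucuacugucuuuc
let-7b-3p: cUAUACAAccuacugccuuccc
let-7f-1-3p: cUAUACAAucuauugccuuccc
let-7d-3p: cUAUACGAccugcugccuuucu
let-7e-3p: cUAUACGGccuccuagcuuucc
let-7a-2-3p: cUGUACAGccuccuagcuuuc
let-7c-1-3p: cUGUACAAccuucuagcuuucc
let-7g-3p: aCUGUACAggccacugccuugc
The guide of the most even hairpin, let-7d-5p, is shown beside that of let-7b for comparison.
let-7d-5p: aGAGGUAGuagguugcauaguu
let-7b-5p: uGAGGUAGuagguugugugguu
All 7 guides share the seed GAGGUAG, whereas the 10 3p arms hold 7 different seeds. Only the seed UAUACAA occurred more than once, in let-7a-1-3p, let-7b-3p, let-7c-2-3p and let-7f-1-3p, and among the RefSeq mature miRNAs it was otherwise found in miR-98-3p. Of the 10 3p arms 9 began with C, against 22.8% of the 754 miRNAs of the table that RefSeq holds under the same name, and 6 of the 7 guides began with U, with A in let-7d-5p. Of these 754 miRNAs, the run CUAGCUUUC was present only in let-7a-2-3p, let-7c-1-3p and let-7e-3p, and the run CUGUCUUUC only in let-7a-1-3p, let-7c-2-3p and let-7f-2-3p (0.398% of the miRNAs for each run).

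The methods of the study allow mismatches and changed ends when reads are counted, but also name miRBase as matched without mismatch, so whether near-identical arms exchanged reads cannot be told from the sources used here. Of the 45 pairs of 3p arms, 6 differed by at most 2 bases. With positions counted from 1 at the 5′ end, let-7a-1-3p and let-7c-2-3p were identical, both differed from let-7f-2-3p by A8G, let-7b-3p differed from let-7f-1-3p by C9U and C13U, and let-7a-2-3p differed from let-7c-1-3p by G8A and C12U and from let-7e-3p by G3A and A7G. let-7d-3p and let-7g-3p had no such neighbour among the 3p arms. The identical arms let-7a-1-3p and let-7c-2-3p were listed in separate rows, with 408 and 403 reads in WT1, 379 and 375 in WT2, 312 and 311 in APP3 and 317 and 319 in APP4. These rows differed by 5, 4, 1 and 2 reads, where a random assignment of each read to either row would give a SD of 24.96 to 28.48 reads. Likewise, miR-199a-3p had 2.01 to 2.08 times the reads of miR-199b-3p, which has the same sequence and 1 hairpin where miR-199a-3p has 2. Whether shared reads were divided over the hairpins or counted on both is not given in the sources used here, so these rows hold no separate information on the let-7a-1 and let-7c-2 hairpins.

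On GRCm38.p6 the hairpins lie at 7 places. Mirlet7a-1 (chromosome 13, 48538179 to 48538272), Mirlet7f-1 (48537829 to 48537917) and Mirlet7d (48536012 to 48536114) lie in a row on the minus strand within exons of the lincRNA 6720427I07Rik, with 261 bases between the first and the second and 1714 between the second and the last. Mirlet7c-2 (chromosome 15, 85706603 to 85706697) and Mirlet7b (85707319 to 85707403) lie 621 bases apart in exons of the noncoding transcript Lncppara. Mirlet7e (chromosome 17, 17830352 to 17830444) lies in an intron of Spaca6, 367 bases from Mir125a. Mirlet7c-1 (chromosome 16, 77599657 to 77599750) lies in an intron of the Mir99a host gene Mir99ahg, 656 bases from Mir99a, and Mirlet7a-2 (chromosome 9, 41536716 to 41536811) in an intron of 3110039I08Rik, 5211 bases from Mir100. Mirlet7f-2 (chromosome X, 151912346 to 151912428) lies in an intron of Huwe1, 785 bases from Mir98, and Mirlet7g (chromosome 9, 106178840 to 106178927) in an intron of Wdr82.

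The libraries held between 19048747 and 26085776 miRNA reads, and levels below are reads per 1000000 miRNA reads (RPM) of the same library. At this depth 3 reads, the upper limit that a count of 0 allows, correspond to 0.115 to 0.157 RPM. The cortex markers miR-124-3p, miR-9-5p, miR-9-3p, miR-128-3p, miR-138-5p and miR-132-3p were present in every library and summed to between 78882 and 86310 RPM. Markers of other cells were present as well, with summed levels of 98.5 to 214 RPM for 3 blood markers, 1774 to 2116 RPM for 2 oligodendrocyte markers and 17836 to 25330 RPM for 3 vessel markers. The blood sum leaves out miR-486-5p, which was counted but had been listed under the names miR-486a-5p and miR-486b-5p. The 8 markers of epithelium (the miR-200 family with miR-182, miR-183 and miR-96) summed to 5862 RPM in APP4 and to 576 to 1024 RPM in the other libraries. None of the marker miRNAs summed was at 0 in a library. The part of these cell types in the values below was not tested, and in cortex tissue fewer cells of a type and less RNA per cell cannot be told apart.

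The passenger strands were unequal. let-7d-3p reached 612 and 558 RPM in WT1 and WT2 and 756 and 657 RPM in APP3 and APP4, ranking 98 of 942 by its mean over the libraries, and it held between 80.0% and 82.2% of the reads of all 10 3p arms. let-7e-3p, from the Spaca6 intron, followed with 46.0, 40.9, 52.2 and 60.8 RPM in WT1, WT2, APP3 and APP4. let-7b-3p had 23.7, 23.8, 34.5 and 21.9 RPM in the same order, so APP3 stood above the other libraries. The levels of let-7d-3p, let-7e-3p and let-7b-3p did not overlap with each other in any library.

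Below these, the levels of the 3p arms ran into each other. let-7f-1-3p had 18.3, 16.8, 23.2 and 20.1 RPM in WT1, WT2, APP3 and APP4, and let-7g-3p had 14.5, 15.2, 17.4 and 20.3 RPM. let-7a-1-3p had 15.6, 17.2, 14.7 and 16.6 RPM, and the identical let-7c-2-3p lay between 14.6 and 16.98 RPM. The ranges of these arms overlapped, and that of let-7f-1-3p also overlapped with the range of let-7b-3p. Well below them, let-7c-1-3p had between 3.44 and 5.04 RPM, let-7a-2-3p between 1.63 and 1.88 RPM and let-7f-2-3p between 0.498 and 1.11 RPM. let-7f-2-3p was counted with 29 and 11 reads in WT1 and WT2 and with 16 reads in each AD mouse. Its 95% Poisson interval reached from 0.249 to 0.891 RPM in WT2 and from 0.745 to 1.597 RPM in WT1, so these intervals overlapped, and all intervals here cover counting error only.

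**Figure D1:**
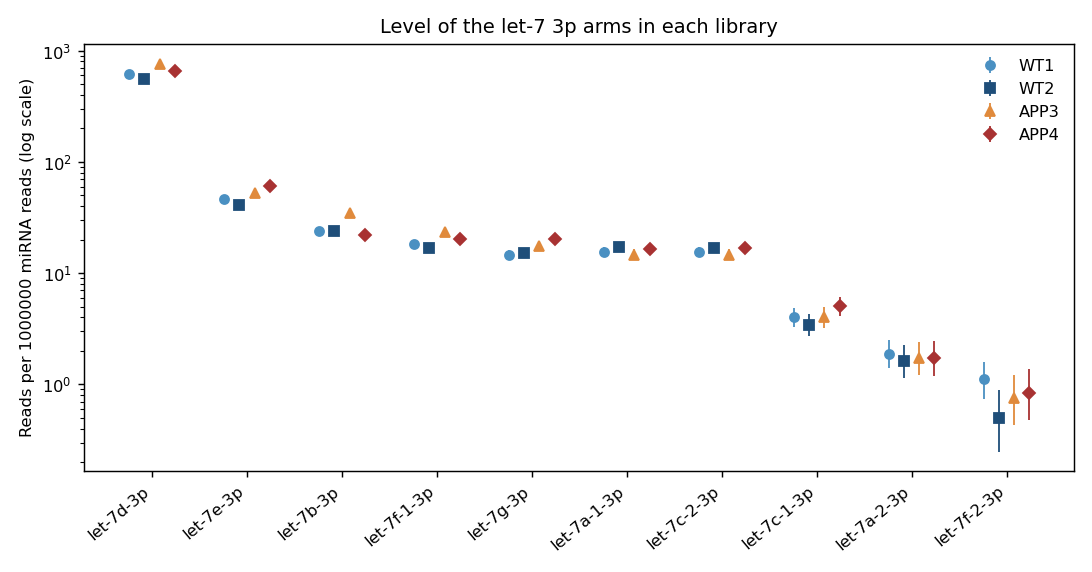
Level of each let-7 3p arm in reads per 1000000 miRNA reads (log axis) in WT1, WT2, APP3 and APP4, with 95% Poisson intervals for counting error. let-7d-3p stands between 558 and 756 RPM and let-7f-2-3p between 0.498 and 1.11 RPM, and the levels of let-7f-1-3p, let-7g-3p, let-7a-1-3p and let-7c-2-3p overlap.

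For let-7f, whose copies share a guide and have different 3p arms, one copy had most of the 3p reads listed. Of these reads, let-7f-2-3p from the Huwe1 intron took 5.72% in WT1 and 2.87% in WT2, with 95% Wilson intervals of 4.01 to 8.09 and 1.61 to 5.07. It took 3.14% in APP3 (1.94 to 5.04) and 4.01% in APP4 (2.48 to 6.41), and the remainder was on let-7f-1-3p from chromosome 13. let-7a-2-3p had between 8.67% and 10.7% of the 3p reads listed for the let-7a copies, and let-7c-1-3p between 16.9% and 23.1% of those for let-7c. The let-7a and let-7c shares depend on how the reads of the identical let-7a-1-3p and let-7c-2-3p were assigned to rows, so which copy had most reads is not known for these guides. The let-7f share can depend on assignment too. let-7f-2-3p differs from let-7a-1-3p by A8G only, and let-7f-1-3p differs from let-7b-3p by 2 bases. Whether such near-identical arms exchanged reads is not known. Within each of these 3 sets, the intervals of the 4 libraries overlapped.

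The guides outnumbered the passengers by far. The 5p arms of these hairpins summed to 7.17% to 9.35% of the miRNA reads in WT2, WT1 and APP4 and to 6.92% in APP3, which was 75.3 to 114 times the reads of the 10 3p arms. The 3p share, the 3p reads of a family as a percentage of its 3p and 5p reads, was highest for let-7d, whose guide begins with A. It was 20.7% in WT1 (95% Wilson interval 20.5 to 21.0) and 17.7% in its counterpart WT2 (17.4 to 17.99). In the AD mice it was 24.96% in APP3 (24.6 to 25.3) and 16.4% in APP4 (16.1 to 16.6). The share lay between 1.37% and 1.79% for let-7e, between 0.614% and 1.37% for let-7b and between 0.187% and 0.255% for let-7g. Summed over the copies, it lay between 0.118% and 0.154% for let-7a, between 0.115% and 0.138% for let-7c and between 0.0556% and 0.0822% for let-7f. Across the 207 hairpins with 1 copy of each arm and at least 1000 reads, the less abundant arm had a median share of 2.68%, and the 3p arm was the less abundant one in 48.3% of them. By this share, 165 of the 207 hairpins lay below let-7d, 85 below let-7e, 74 below let-7b and 42 below let-7g.

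**Figure D2:**
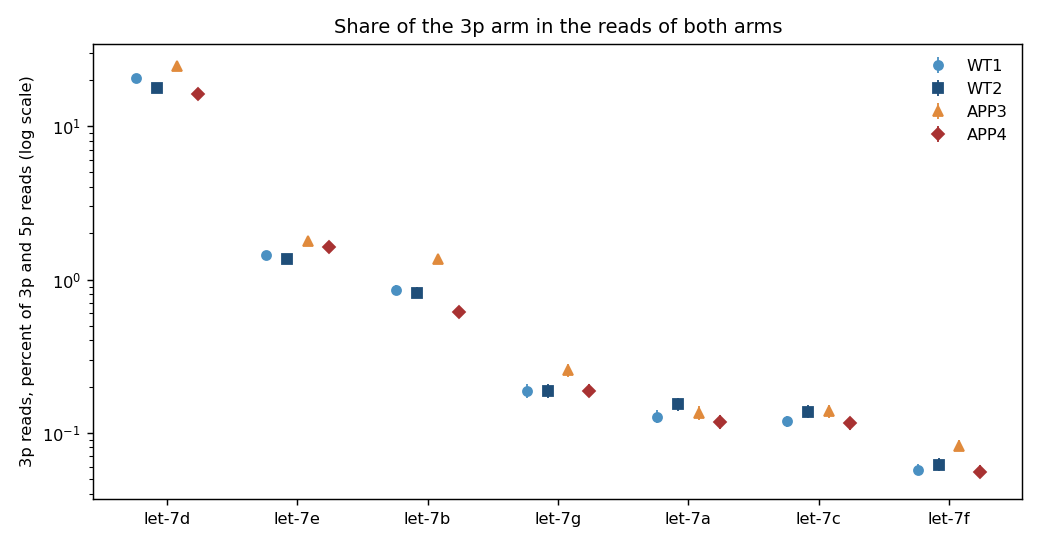
Reads of the 3p arm as a percentage of the 3p and 5p reads of each let-7 family (log axis) in the 4 libraries, with 95% Wilson intervals. The shares fall from 16.4% to 24.96% for let-7d to under 0.1% for let-7f. APP3 is the highest library in 6 of the 7 families, with an interval that overlaps another library's for let-7c and let-7e.

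The 3p share does not depend on the scaling of the libraries, since both arms are counted in the same library, and it differed between the AD mice. APP3 had the higher share of the AD mice in all 7 families. APP3 was the highest of the 4 libraries in 6 of them, and APP4 was the lowest in 5. These orders take no account of counting error. For let-7a, let-7c and let-7e the 95% Wilson intervals of APP3 and APP4 overlapped. For let-7c the share was 0.1383% in APP3 and 0.1373% in WT2, with overlapping intervals. For let-7f it was 0.0556% in APP4 and 0.0574% in WT1, also with overlapping intervals. In WT1, 408 of 457 3p reads of let-7a and 403 of 508 of let-7c were on the identical let-7a-1-3p and let-7c-2-3p. The 3p counts of let-7a and let-7c are therefore not separate in these numbers of families or in the medians below. For comparison, 91 hairpins with 1 copy had the 3p arm as the less abundant one (with at least 10 reads on each arm in each library). They include let-7b, let-7d, let-7e and let-7g, but not let-7a, let-7c and let-7f, which have several copies. Of these 91 hairpins, APP3 was the highest library in 26.4%, APP4 the lowest in 27.5%, and APP4 lay below APP3 in 56.0%. The log2 ratio of 3p to 5p reads in APP4 minus that in APP3 was -1.17 for let-7b, -0.77 for let-7d, -0.57 for let-7f and -0.15 for let-7e, with a median of -0.44 over the 7 families and of -0.05 over the 91 hairpins. Between the WT mice the same difference (WT2 minus WT1) was -0.06 for let-7b, -0.28 for let-7d, 0.27 for let-7a and 0.21 for let-7c, with a median of 0.0048 over the 7 families and of 0.13 over the 91 hairpins. For let-7a it was larger in size than the difference of -0.19 between the AD mice. let-7i, outside these families, had 598, 642, 756 and 535 3p reads in WT1, WT2, APP3 and APP4. Its 5p reads were 299107, 188703, 190093 and 217240 in the same order. The 3p share of let-7i was thus also higher in APP3 than in APP4, and it was higher in WT2 than in WT1. miR-98, also outside these families, had 298, 237, 322 and 333 3p reads and 29777, 19730, 19544 and 23382 5p reads in this order. Its 3p share was likewise highest in APP3, with both AD mice above both WT mice, as in 20.9% of the 91 hairpins.

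Between the genotypes the shares mostly overlapped. For let-7e the share averaged 1.40% ± 0.046 over the WT mice and 1.71% ± 0.12 over the AD mice (SD, n = 2 each), and for let-7g it was 0.187% ± 0.00044 and 0.222% ± 0.047. In these families both AD mice lay above both WT mice, as they did in 20.9% of the 91 hairpins. For let-7g the order rested on APP3, since APP4 with 0.1883% and WT2 with 0.1876% had overlapping 95% Wilson intervals of 0.170 to 0.208 and 0.169 to 0.209. The log2 ratio of let-7g was higher in the AD mice by 0.23, by 0.0081 without APP3 and by 0.44 without APP4. For let-7d the mean was 19.2% ± 2.1 in the WT and 20.7% ± 6.1 in the AD mice, and for let-7b 0.839% ± 0.024 and 0.992% ± 0.54, with WT mice between the AD mice in both cases. A two-sided exact permutation test over the 4 mice gave p = 0.333 for let-7e and let-7g, the smallest value that 2 against 2 mice allow, and p = 1 for let-7b and let-7d (0.667 and 1 after Benjamini-Hochberg adjustment over the 4 hairpins). This test therefore cannot reach p under 0.05 with 2 against 2 mice.

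To ask whether the level of a 3p arm differed between the genotypes, the counts of the 4 mice were compared with edgeR's quasi-likelihood test over all 623 miRNAs that passed its filter on low counts, the 10 3p arms among them. None of the 10 passed, and 0 of the 623 miRNAs (0.0%) had an adjusted p under 0.05, with 36 at an unadjusted p under 0.05. DESeq2's Wald test, run on all 942 miRNAs without this filter, also called 0, with 28 at an unadjusted p under 0.05. The log2 fold changes of the AD over the WT mice were 0.24 (SE 0.22) for let-7e-3p, 0.20 (SE 0.19) for let-7g-3p, 0.14 (SE 0.21) for let-7d-3p, 0.17 (SE 0.22) for let-7f-1-3p and 0.13 (SE 0.29) for let-7b-3p. They were -0.20 (SE 0.19) for let-7a-1-3p, -0.16 (SE 0.29) for let-7a-2-3p and -0.19 (SE 0.49) for let-7f-2-3p. In edgeR, the adjusted p of the 3p arms lay between 0.958 and 0.983. Their median log2 fold change was 0.13, against -0.02 over all 623 miRNAs, and -0.04 for the 7 guides. Over the fits that leave out 1 mouse, the log2 fold change ran from 0.14 to 0.37 for let-7e-3p, from 0.017 to 0.30 for let-7c-1-3p and from -0.26 to -0.00027 for let-7a-2-3p. Without APP3 the log2 fold change of let-7d-3p was -0.039, that of let-7b-3p -0.32 and that of let-7f-1-3p -0.012.

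Scaled to the miRNA reads, both AD mice lay above both WT mice for 5 of the 10 3p arms, against 27.0% of the 623 miRNAs. These were let-7d-3p, let-7e-3p, let-7f-1-3p, let-7g-3p and, by a narrow gap between 4.03 RPM in WT1 and 4.04 RPM in APP3, let-7c-1-3p. For none of the 10 did both AD mice lie below both WT mice, against 8.99% of the 623. This count depended on the scaling. TMM, which corrects library sizes for a few abundant miRNAs, moved the log2 fold changes of APP4 against WT1 by -0.25 and those of APP3 against WT2 by -0.02. With TMM library sizes both AD mice lay above both WT mice for let-7e-3p and let-7g-3p (14.9% of the 623), and below them for the identical let-7a-1-3p and let-7c-2-3p (19.1% of the 623). let-7e-3p and let-7g-3p were thus the arms with both AD mice above both WT mice under either scaling. Scaled to the miRNA reads, the WT and AD means of let-7e-3p were 43.4 ± 3.7 and 56.5 ± 6.0 RPM (SD, n = 2). Those of let-7g-3p were 14.9 ± 0.49 and 18.8 ± 2.0 RPM. The distance was smaller with TMM, where the log2 fold change of APP4 against WT1 fell from 0.40 to 0.15 for let-7e-3p. For let-7g-3p it fell from 0.48 to 0.23. Together, when scaled to the miRNA reads, the 10 arms summed to 753 and 694 RPM in WT1 and WT2 and to 919 and 821 RPM in APP3 and APP4. Of these reads 80.0% to 82.2% were of let-7d-3p, which with TMM was lower in APP4 than in WT1, by -0.15 on the log2 scale.

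For single libraries, the reads of each miRNA were put to Fisher's exact test (two-sided), and p-values were adjusted to a false discovery rate (FDR) after Benjamini and Hochberg. Calls needed a difference of 1.5-fold or more together with an FDR below 0.05. A call says that a pair of libraries differed, not that the genotypes did, and the standard errors cover counting only. None of the 10 3p arms was called between APP4 and WT1, where 11.6% of the 899 miRNAs were called (9.68% higher and 1.89% lower in APP4), nor between APP3 and WT2, where 6.81% of 896 were (3.35% higher and 3.46% lower in APP3). Between the WT mice none was called either (10.1% of 879, with 7.62% higher and 2.5% lower in WT2). When the AD mice were compared with each other, let-7b-3p was called (8.05% of 907, with 5.07% higher and 2.98% lower in APP4). The split of all calls depended on the scaling, with 87 higher and 17 lower in APP4 against WT1 and 39 and 46 with TMM library sizes. For WT2 against WT1 it went from 67 and 22 to 40 and 37 with TMM and to 88 and 15 per clean read, and for APP4 against APP3 from 46 and 27 to 29 and 42 with TMM. With TMM, let-7f-2-3p was also called, lower in WT2 with its 11 reads against 29 in WT1, at -1.22 on the log2 scale. let-7b-3p was lower in APP4 than in APP3, with 417 and 733 reads, a log2 fold change of -0.65 (SE 0.09) and an FDR of 3.20e-13 in Fisher's exact test. With 1 of the 10 arms called, the count was near the share called over all miRNAs.

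Smaller differences passed the FDR without reaching 1.5-fold, as they did for many miRNAs at this depth. Between APP3 and WT2, let-7d-3p, let-7e-3p, let-7b-3p and let-7f-1-3p were higher in APP3 at an FDR under 0.05, with log2 fold changes of 0.44 (SE 0.02), 0.35 (SE 0.06), 0.54 (SE 0.08) and 0.46 (SE 0.10), where 36.0% of all miRNAs tested had such an FDR. Between APP4 and WT1, let-7g-3p with 0.48 (SE 0.10), let-7e-3p with 0.40 (SE 0.06) and let-7d-3p with 0.10 (SE 0.02) were higher in APP4 at an FDR under 0.05, against 40.3% of all. These differences between APP4 and WT1 depended on the scaling. With TMM library sizes that of let-7d-3p turned to -0.15, that of let-7e-3p was 0.15 and that of let-7g-3p was 0.23 with an FDR of 0.0868 in Fisher's exact test. let-7b-3p differed by -0.11 on the log2 scale (SE 0.09, FDR 0.377 in Fisher's exact test) in APP4 against WT1, and by -0.37 with an FDR of 0.000215 with TMM. In APP3 against WT2, the differences of the 4 arms named passed with TMM and per clean read as well. Between the WT mice, let-7d-3p was lower in WT2 by a log2 difference of -0.13 (SE 0.02) and let-7e-3p by -0.17 (SE 0.06), both at an FDR under 0.05 (40.5% of all). With TMM these were -0.24 and -0.28, and per clean read -0.047 and -0.085, where let-7e-3p had an FDR of 0.338 in Fisher's exact test.

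**Figure D3:**
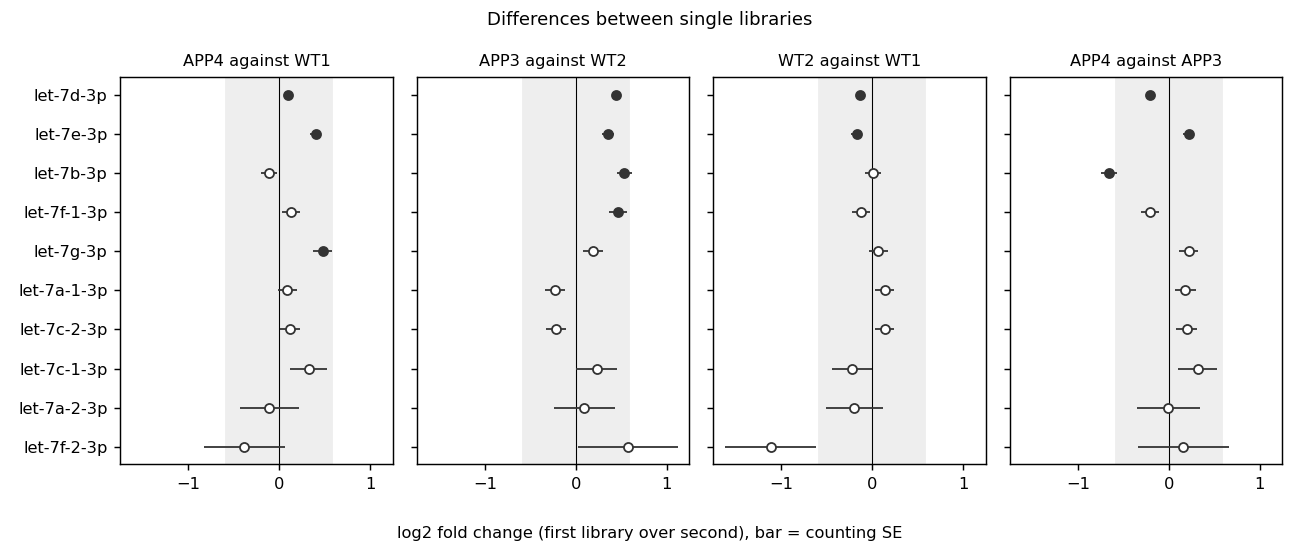
Log2 fold change of each 3p arm between single libraries (first over second), with bars for the counting SE, filled points for an FDR under 0.05 in Fisher's exact test and grey for changes under 1.5-fold. Only let-7b-3p in APP4 against APP3 is a filled point outside the grey, at -0.65.

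Between the AD mice the guides were in all 7 families higher in APP4, and let-7d-3p and let-7b-3p were lower. The 7 guides had log2 fold changes of 0.36 to 0.66 in APP4 against APP3, while let-7d-3p had -0.20 (SE 0.02), let-7b-3p -0.65 and let-7e-3p 0.22 (SE 0.06), each at an FDR under 0.05 in Fisher's exact test (35.2% of all). Of the 7 guides, 1 was called higher in APP4, where 5.07% of 907 miRNAs were. TMM moved the log2 fold changes of this pair by -0.13, so the guides stayed higher in APP4 but the called guide fell under 1.5-fold. With TMM let-7e-3p had 0.088 and an FDR of 0.316 in Fisher's exact test. let-7f-1-3p had -0.20 (SE 0.10, FDR 0.103 in Fisher's exact test), and passed with -0.34 (FDR 0.00233) with TMM and with -0.28 (FDR 0.0155) per clean read. The let-7d-5p guide reached 2340 and 2594 RPM in WT1 and WT2, against 2272 in APP3 and 3361 in APP4, so the library with the most let-7d-3p, APP3, had the least let-7d-5p. let-7b-5p had 2744, 2868, 2480 and 3545 RPM in the same order, with APP3 again the lowest, where let-7b-3p was highest.

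Several 3p arms share a primary transcript or a locus with miR-99, miR-100 and miR-125, so their values can be set beside those of their partners. In edgeR over the 4 mice, miR-100-5p stood at a log2 fold change of -1.43 (SE 0.41) where let-7a-2-3p had -0.16 (SE 0.29), and miR-99a-5p had -0.75 (SE 0.27) where let-7c-1-3p had 0.13 (SE 0.24). miR-99b-5p had -0.98 (SE 0.41) and miR-125a-5p -0.50 (SE 0.25) where let-7e-3p, between their hairpins, had 0.24 (SE 0.22). The 3p arms of these partner hairpins had 0.0061 (SE 0.21) for miR-99b-3p, 0.20 (SE 0.26) for miR-99a-3p and -0.20 (SE 0.22) for miR-125a-3p. miR-100-3p had -0.64 (SE 0.34) on 35 to 82 reads, lower like miR-100-5p. At the same locus miR-125b-1-3p had -0.10 (SE 0.19), and miR-125b-5p, which another hairpin also gives, had -0.53 (SE 0.23). The 3p arm of that other hairpin, miR-125b-2-3p, had -0.30 (SE 0.18). Beside let-7f-2, miR-98-3p had 0.42 (SE 0.20). Without a block, 0 of the 13 partner arms passed edgeR's test. With the sibling pair as a block, miR-100-5p passed with an adjusted p of 0.0166, a log2 fold change of -1.44 and a SE of 0.16 in edgeR, and none of the 3p arms of let-7 did. In Fisher's exact test, 3 of the 13 partner arms were called lower and 1 higher in APP4 than in WT1 (4 and 0 with TMM), where 11.6% of all miRNAs were called. Against WT2, 4 were called lower in APP3 (6.81% of all). Partner arms were also called within a genotype, with 4 higher and 1 lower in WT2 against WT1 (10.1% of all) and 3 lower in APP4 against APP3 (8.05% of all). How far a 3p arm and its partner differ was not tested.

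**Figure D4:**
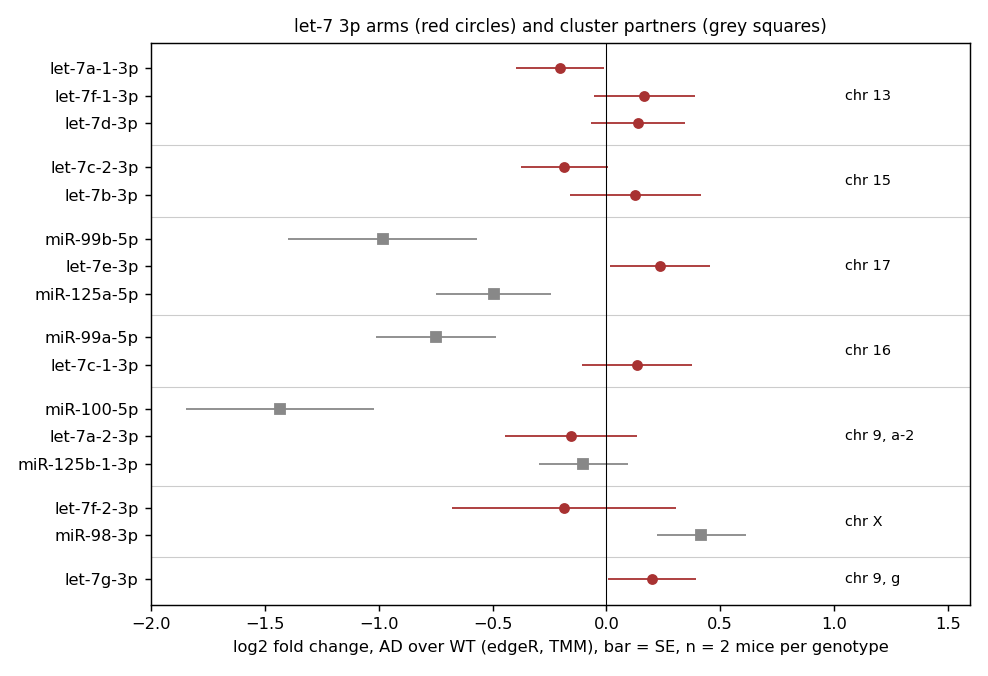
Log2 fold change of the AD over the WT mice in edgeR (bars show the SE, n = 2 mice per genotype) for the let-7 3p arms, red circles, and for the miRNAs of the same loci, grey squares. The 3p arms lie between -0.20 and 0.24, miR-100-5p at -1.43 and miR-99b-5p at -0.98.

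Of the 251 other miRNAs averaging 50 RPM or more, those whose levels over the 4 libraries were most like those of let-7d-3p were miR-433-3p, miR-132-3p and miR-496a-3p. The root mean square difference of their log2 RPM, centred on the mean of each miRNA, was 0.017, 0.050 and 0.055, against a median of 0.22 over the 251. miR-433-3p reached 709 and 660 RPM in the WT mice WT1 and WT2, and 865 and 766 RPM in APP3 and APP4. Likeness over 4 libraries is a description of those libraries.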

How the data were processed

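The small RNA of the cortex of 4 mice was sequenced, 1 library per mouse. The authors trimmed the reads, kept those of small RNA length, matched them to miRBase mature miRNAs with Bowtie and the CLC workbench, and deposited counts without normalization for 942 mature miRNAs. They also deposited the values as RPM of the clean reads, named TPM in the table, used here for an alternative scaling to between 22851004 and 31265701 clean reads. No column was left out. The paper allows mismatches and changed ends in counting and also states that none was allowed for miRBase, and which held for the counts is not known. It names the GRCm38 genome and the labels mm9. Coordinates and sequences come from RefSeq GRCm38.p6, and host genes from GENCODE vM21, since the counts hold no positions. All 10 members matched RefSeq by name.

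Fisher's exact tests and shares were computed with scipy 1.17.1, and edgeR 4.0.16 under R 4.3.3 (quasi-likelihood test after filterByExpr, with TMM, Benjamini-Hochberg over all miRNAs tested, SE taken as the size of the log2 fold change over the square root of F) compared the genotypes. DESeq2 1.42.0 was an alternative. Log2 fold changes between libraries had 0.5 read added. Fisher's rule and edgeR's test were tested on simulated data that varied less between libraries than these data, with counting error only for Fisher's rule. How they perform at the spread of these data was not tested. The sibling pairs come from the methods of the paper, and sibling deviations from the genotype means correlated with r = 0.235 across 252 miRNAs. The labels do not say whether the libraries were made in batches. The members, the lists of guides, partners and marker miRNAs, and the tests were chosen with earlier results of these data known. The miRNAs named were the members, their guides, other let-7 arms, locus partners, marker lists and the 3 miRNAs nearest in profile to the most abundant member, and miR-199a-3p and miR-199b-3p were added after their values were seen. Alternatives were TMM and clean-read scaling, summed identical rows, a 2-fold limit, 5 reads added, a 10 RPM minimum, the sibling block, no filter, other size factors, and each mouse left out.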

Additional observations from a re-analysis of the deposited data

Results flagged for a closer look

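The sibling pairs moved in opposite directions in the 3p share of let-7b and let-7d. The log2 ratio of 3p to 5p reads of let-7b was lower in APP4 than in WT1, by -0.48, and higher in APP3 than in WT2, by 0.75. For let-7d the same differences were -0.42 and 0.63. Each difference exceeded its counting error, and whether the pairs differ from each other was not tested, with 1 mouse of each genotype in a pair.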

How the results depend on the processing

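Over the 4 mice, 0 of the 10 3p arms passed under any alternative of edgeR or DESeq2, while the count over all miRNAs was 2 with the sibling pair as a replicate block, which changed no call of a 3p arm, and 0 to 21 with each mouse left out, where the lone mouse of a genotype is assumed to vary like the others (3 without WT1, 21 without APP3 and 5 without APP4). With each mouse left out the log2 fold change of AD over WT ran from -0.32 to 0.45 for let-7b-3p, from -0.039 to 0.28 for let-7d-3p, from -0.012 to 0.31 for let-7f-1-3p and from -0.63 to 0.58 for let-7f-2-3p, and the difference in log2 ratio of 3p to 5p from -0.45 to 0.72 for let-7b and from -0.28 to 0.49 for let-7d. With TMM library sizes the log2 fold changes of APP4 against WT1 turned to -0.12 for let-7f-1-3p, -0.15 for let-7d-3p, -0.14 for let-7c-2-3p and -0.16 for let-7a-1-3p, those of WT2 against WT1 to -0.038 for let-7g-3p and -0.10 for let-7b-3p, and 1 3p arm, let-7f-2-3p, was then called between the WT mice, at -1.22. With 5 reads added, let-7a-2-3p in APP4 against APP3 turned to 0.015. A limit of 2-fold left 50, 23, 38 and 38 miRNAs called in APP4 against WT1, APP3 against WT2, WT2 against WT1 and APP4 against APP3, with 0 3p arms, and a minimum of 10 RPM left 53, 30, 40 and 40. Without the row shared with let-7a-1, the log2 ratio of let-7c was 0.25 higher in the AD mice. The summed level of the 3p arms was higher in the AD mice by 0.26 on the log2 scale, and by 0.13 with TMM. In counts chosen after seeing the data, both AD mice lay above both WT mice for 2 arms and below them for 2 with TMM (14.9% and 19.1% of the 623 miRNAs). Without APP4 a lone AD mouse is compared. APP3 then lay above both WT mice for 5 to 6 arms and below them for 2 under the 3 scalings. Of the 623 miRNAs, 32.3% to 42.2% were above and 20.9% to 31.9% below in this way. The causes were not tested. Depth limits let-7f-2-3p, with 11 to 29 reads, and let-7a-2-3p, with 33 to 49.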

Other observations

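The remaining 3p arms of the family, let-7i-3p and miR-98-3p, were of similar abundance to let-7b-3p and let-7g-3p. let-7i-3p reached 22.9 and 29.1 RPM in WT1 and WT2 and 35.5 and 28.1 RPM in APP3 and APP4, and like let-7b-3p it was highest in APP3. miR-98-3p, which shares the seed UAUACAA, had 11.4, 10.7, 15.1 and 17.5 RPM, with both AD mice above both WT mice. It was called higher in APP4 than in WT1 by Fisher's exact test, at 0.61 on the log2 scale (SE 0.11), and had 0.50 (SE 0.12) between APP3 and WT2, under the limit of 1.5-fold. With TMM library sizes it had 0.36 in APP4 against WT1 and was not called. Over the 4 mice its log2 fold change was 0.42 (SE 0.20), with an adjusted p of 0.820 in edgeR. Its neighbour on the X chromosome, let-7f-2-3p, had -0.19 (SE 0.49). Of the 6 other arms of the family, 0 passed edgeR's test over the 4 mice.

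let-7j and let-7k, which are listed without an arm, differed between libraries of one genotype. let-7j was called lower in WT2 than in WT1, with 133 and 226 RPM, under each of the 3 scalings. let-7k was called higher in APP4 than in APP3, with 118 and 81 reads and 0.70 on the log2 scale in Fisher's exact test, and with TMM it had 0.57 and was not called.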
